A study of Mus musculus with 12 samples.

Results

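The genes described here make fatty acids and assemble them into triglyceride. They were 34 mouse genes, chosen by symbol with earlier results of these data known, of 32622 genes listed in each table. They were read in white fat of C2orf74 KO mice and WT mice, from the subcutaneous pad (scWAT) and the epididymal pad (epWAT). There were 3 libraries each of KO scWAT, WT scWAT, KO epWAT and WT epWAT, from 3 KO mice (C7, C34 and C695) and 3 WT mice (C75, C85 and C99), each giving both pads. Every mouse, WT included, ate a high fat diet for 12 weeks from an age of 8 weeks. How the KO allele was made, the strain and any lean control are not given in the sources used, so the effect of the diet cannot be told apart from the other conditions that all groups shared. Values are FPKM, reads per gene length, scaled to the depth of the library, and p-values of KO against WT measure the spread between these 3 mice of each genotype. In the main comparisons between pads and the interaction, both pads of a mouse entered as independent libraries.

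Fat cells build fatty acids from citrate exported by mitochondria. Citrate is split to acetyl-CoA, carboxylated to malonyl-CoA by the acetyl-CoA carboxylases and lengthened by fatty acid synthase, with reducing power from NADPH that malic enzyme and the pentose phosphate pathway supply. The product is elongated, desaturated, activated to acyl-CoA and joined stepwise to a glycerol backbone, and in rodents the transcription factors SREBP1 and ChREBP, encoded by Srebf1 and Mlxipl, raise the transcription of many of these genes. On roles, 4 members were regulators, 5 served citrate and acetyl-CoA supply, 5 NADPH and pentose phosphates, 3 fatty acid synthesis, 4 elongation, 4 desaturation, and 9 activation and triglyceride assembly.

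Fat cell genes were expressed in every library, with Adipoq (adiponectin) at 1108 to 2442 FPKM and Plin1 (perilipin) at 287 to 602 FPKM. Recovered depths were 15011093 to 18311564 reads. The mouse gene taken to match C2orf74, 1700093K21Rik, was at most 0.0592 FPKM in KO libraries and at most 0.272 FPKM in WT libraries, too low to check the genotype labels. A few libraries held other tissue. Crisp1, secreted by the epididymis, reached 219 FPKM in KO epWAT C7, and Cd79a, a gene of B cells, reached 75.8 FPKM in KO scWAT C695, against at most 6.30 and 4.60 FPKM elsewhere. The summed level of 6 skeletal muscle markers was highest in KO scWAT C34, at 274.5 FPKM, against 7.87 to 149 FPKM in the other libraries.

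All 34 members were expressed in all 12 libraries. The lowest value was 4.15 FPKM, for Elovl6, so each member passed the filter on low values in every comparison and none passed through 1 group alone. Scd1, the main stearoyl-CoA desaturase of mouse fat, stood far above the rest at a mean of 7380 FPKM, followed by Dgat2, an enzyme of the last step of triglyceride synthesis, at 929 FPKM and Gpd1, which makes glycerol 3-phosphate, at 330.0 FPKM. The lowest means were those of the elongase Elovl6 at 5.45 FPKM, the desaturase Fads2 at 11.1 FPKM and Mid1ip1, a partner of acetyl-CoA carboxylase, at 11.8 FPKM. These ranks are per length as the authors set it. The lengths that gave whole reads differed from the annotation used here for 8 members, most of all for Pnpla3 (4640 bases against 1548), Fads2 (1508 against 3295) and Gpam (3832 against 6664). Read numbers were 108 to 500 for Fads2, the fewest, and 339756 to 968847 for Scd1. Counting error was not compared with the spread between mice. The coefficient of variation within groups averaged 3.89% for Pgd and 5.48% for Agpat3, the steadiest members, and 40.2% for Thrsp and 36.2% for Acacb, the most variable.

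Scd1 alone took 3.09% to 4.77% of the reads of KO scWAT libraries and 2.34% to 3.43% of WT scWAT libraries. It took 4.12% to 5.60% of those of KO epWAT, against 1.92% to 3.35% of those of WT epWAT. The epWAT groups did not overlap, while in scWAT the KO library of C695 lay among the WT libraries. The other 33 members together took 1.50% to 1.96% of reads in KO scWAT against 1.82% to 1.89% in WT scWAT, and 1.73% to 2.40% in KO epWAT against 1.59% to 1.76% in WT epWAT, so without Scd1 the groups overlapped in both pads.

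**Figure D1:**
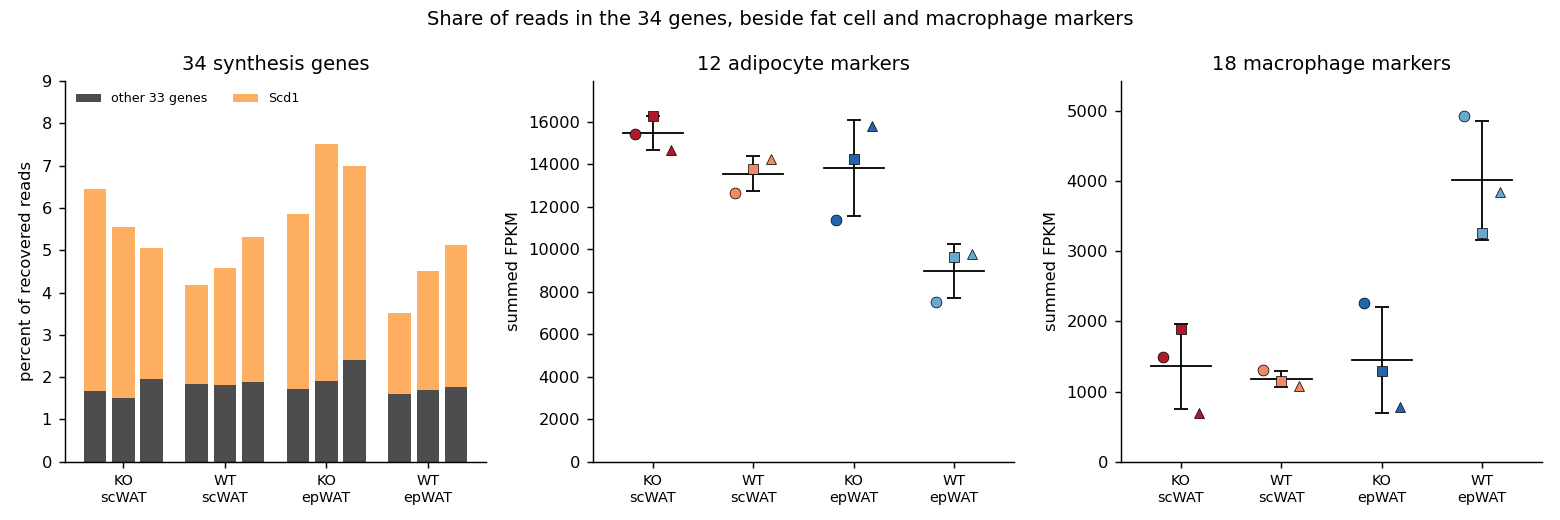
Left, percent of recovered reads in the 34 synthesis genes for each library, with Scd1 in orange and the other 33 genes in grey; the 3 bars of a group are C7, C34 and C695 (KO) or C75, C85 and C99 (WT). Middle and right, summed FPKM of 12 adipocyte and 18 macrophage markers, with 1 point per library (mouse by shape), the mean as a line and the SD as a bar (n = 3). KO epWAT bars, 5.85% to 7.50%, lie above all WT epWAT bars, 3.51% to 5.12%, and the macrophage sum sets WT epWAT apart at 3254 to 4933 FPKM.

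Start site sequences are shown for 4 members named in the results below. Slc25a1 and Agpat2 were taken for the difference of the KO effect between the pads, for which no member was called. Acly and Acsl1 were taken for the difference between the pads in WT mice. Each is the 250 bases before the RefSeq start on GRCm38.p6, 5′ to 3′ on the gene's strand. Capitals mark matches, on either strand, to the E-box CACGTG, which ChREBP and other factors bind, the sterol regulatory element TCACNCCAC of SREBP, the CCAAT box and the GC box GGGCGG. Neighbouring GC boxes that share bases run together.
Slc25a1, chr16:17928220-17928469, minus strand: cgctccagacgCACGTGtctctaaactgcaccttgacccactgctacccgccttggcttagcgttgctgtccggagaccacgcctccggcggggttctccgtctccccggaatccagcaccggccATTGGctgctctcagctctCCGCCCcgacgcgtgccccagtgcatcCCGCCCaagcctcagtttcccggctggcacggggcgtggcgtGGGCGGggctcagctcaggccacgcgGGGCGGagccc
Agpat2, chr2:26604418-26604667, minus strand: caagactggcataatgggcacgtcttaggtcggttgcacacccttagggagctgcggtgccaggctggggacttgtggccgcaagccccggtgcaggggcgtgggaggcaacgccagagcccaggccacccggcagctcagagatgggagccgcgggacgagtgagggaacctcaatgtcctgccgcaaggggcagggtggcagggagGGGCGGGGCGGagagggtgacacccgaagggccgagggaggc
Acly, chr11:100528001-100528250, minus strand: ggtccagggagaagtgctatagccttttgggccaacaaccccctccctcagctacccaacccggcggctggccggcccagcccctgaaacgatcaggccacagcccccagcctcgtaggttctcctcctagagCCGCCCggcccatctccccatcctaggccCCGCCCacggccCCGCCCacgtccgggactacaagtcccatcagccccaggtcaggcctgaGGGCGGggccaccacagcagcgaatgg
Acsl1, chr8:46470787-46471036, plus strand: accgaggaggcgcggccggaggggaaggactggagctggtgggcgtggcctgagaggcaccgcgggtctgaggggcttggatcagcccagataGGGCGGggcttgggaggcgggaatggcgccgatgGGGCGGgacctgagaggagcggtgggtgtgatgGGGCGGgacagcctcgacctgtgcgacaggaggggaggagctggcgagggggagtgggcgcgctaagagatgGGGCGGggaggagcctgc
Of these, Slc25a1 holds an E-box, 239 bases before its start, and the others hold GC boxes only.
The RefSeq table had 35 start windows for 28 members; Scd1, Scd2, Fads1, Gpd1, Dgat1 and Dgat2 were not matched. An E-box was found in 8.57% of member windows (Elovl5, Mlxipl and Slc25a1) and in 6.02% of all 32851 windows. The sterol regulatory element was found in 5.71% of member windows (Acsl1, in its other window, and Mlxipl) and in 1.05% of all windows. CCAAT boxes were in 48.6% of member windows against 33.8% of all, and GC boxes in 54.3% against 32.7%. A match is a description of the letters and shows no binding.

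In scWAT, KO mice had less Scd2, the second stearoyl-CoA desaturase. The citrate exporter Slc25a1 and 4 of 5 NADPH and pentose phosphate genes had lower values in KO libraries without passing the test. Srebf1 and Acaca had higher values, also without passing it. Scd2 was the only member called, at a Benjamini-Hochberg adjusted p under 0.05 in limma on log2(FPKM + 1), the scale of all log2 differences here. Of all 12614 genes tested, 0.27% were called lower and 0.0476% higher. The members split evenly, with 16 of 34 above 0 and a median log2 difference of -0.03, against 0.01 over all genes. At an unadjusted p under 0.05 there were 8 members lower and 4 higher, against 10.2% and 6.83% of all genes. In 8 members every KO library lay below every WT library and in 4 every KO library lay above, where 13.4% and 11.1% of all genes did so. The scWAT directions given below for genes without overlap were the same under upper-quartile, quantile and adipocyte marker scaling.

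Among the regulators in scWAT, Srebf1, which encodes SREBP1, had 87.0, 86.9 and 98.6 FPKM in KO libraries, against 73.8, 65.6 and 72.8 FPKM in WT libraries. The groups did not overlap, and the log2 difference of 0.36 ± 0.08 (SE) missed the threshold (limma, adjusted p = 0.129). Mlxipl, which encodes ChREBP, also had KO libraries above all WT libraries, by a narrow margin, at 20.8 to 22.2 FPKM against 14.9 to 20.7 FPKM. Thrsp (Spot 14), a lipogenic cofactor, had 316, 214 and 401 FPKM in KO scWAT and 94.2, 218 and 258 FPKM in WT scWAT, and overlapped.

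The mitochondrial citrate exporter Slc25a1 had 155, 123 and 154 FPKM in KO scWAT, against 218, 250 and 197 FPKM in WT scWAT. All KO libraries lay below all WT libraries, with a log2 difference of -0.62 ± 0.13 (limma, adjusted p = 0.114). Acly, which splits the exported citrate, showed no such gap at 58.6 ± 5.67 FPKM in KO scWAT and 58.0 ± 2.11 FPKM in WT scWAT (SD, n = 3 each).

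Of the 5 NADPH and pentose phosphate genes, 4 had every KO scWAT library below every WT scWAT library, as 13.4% of all genes did. Pgd, the second dehydrogenase of the pentose phosphate pathway, had 62.8, 58.6 and 62.5 FPKM in KO and 76.0, 78.3 and 76.8 FPKM in WT, a log2 difference of -0.33 ± 0.06 (limma, adjusted p = 0.0935). G6pdx, the first enzyme of that pathway, had 70.6, 71.7 and 54.1 FPKM in KO and 79.2, 94.0 and 82.7 FPKM in WT (log2 difference -0.38 ± 0.13). Malic enzyme, Me1, had 134, 102 and 147 FPKM in KO and 182, 195 and 147 FPKM in WT, where the highest KO and the lowest WT library nearly met. Taldo1 (transaldolase) stayed below by less, at 144 to 162 FPKM in KO and 163 to 173 FPKM in WT. Tkt (transketolase) lay the other way, with 58.2 ± 4.03 FPKM in KO and 49.5 ± 4.45 FPKM in WT and overlapping groups.

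In fatty acid synthesis, Acaca, the cytosolic acetyl-CoA carboxylase, had 22.9, 21.3 and 20.4 FPKM in KO scWAT, against 13.1, 15.3 and 18.8 FPKM in WT scWAT. The groups did not overlap (log2 difference 0.44 ± 0.13, limma, adjusted p = 0.179). Fasn, fatty acid synthase, had means of 271 ± 30.5 FPKM with KO and 259 ± 20.9 FPKM with WT, within the spread between libraries. In elongation, Tecr, which reduces the last intermediate of each cycle, had 82.7, 80.1 and 79.1 FPKM in KO against 94.6, 106 and 91.9 FPKM in WT (log2 difference -0.27 ± 0.08, adjusted p = 0.168).

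The desaturase Scd2 had 90.3, 99.9 and 101 FPKM in KO scWAT, against 158, 143 and 160 FPKM in WT scWAT. It fell by 0.65 on the log2 scale (SE 0.08; limma, adjusted p = 0.0494), and all KO libraries lay below all WT libraries. The call was marginal: of the 6 fits that left out 1 library, only that without KO scWAT C695 kept it, and the adjusted p ranged from 0.0448 to 0.258, with log2 differences of -0.70 to -0.60. The desaturase of polyunsaturated fatty acids Fads2 had 4.26, 6.15 and 7.44 FPKM in KO and 9.01, 13.9 and 7.97 FPKM in WT. Its groups did not overlap and its log2 difference was -0.69 ± 0.25 (adjusted p = 0.232).

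Of the 9 genes of activation and triglyceride assembly, Agpat3 alone had scWAT groups that did not overlap, with KO above, as in 11.1% of all genes. Agpat3, an acyltransferase acting on lysophosphatidic acid, had 29.4, 32.5 and 27.0 FPKM in KO against 24.0, 24.8 and 24.7 FPKM in WT, without overlap (log2 difference 0.26 ± 0.08, adjusted p = 0.2). Dgat2 had 737, 653 and 909 FPKM in KO and 1091, 863 and 1044 FPKM in WT, and the groups overlapped.

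Marker sums without overlap between the same scWAT libraries were those of adipocytes (12 genes, 14690 to 16290 FPKM in KO and 12650 to 14230 FPKM in WT), brown adipocytes (6 genes, 68.5 to 87.9 FPKM against 36.6 to 61.7 FPKM) and endothelium (6 genes, 109 to 137 FPKM against 143 to 147 FPKM). The adipocyte markers did not move as one, with 6 above 0 and 6 below, a median log2 difference of -0.02, and Lep (leptin) called lower (-1.37, limma, adjusted p = 0.0439). Macrophage sums overlapped, at 699 to 1886 FPKM in KO and 1083 to 1313 FPKM in WT. The part of these markers in the gene differences was not tested. In bulk tissue, fewer cells of a type and less RNA per cell cannot be told apart. With the mouse as a random effect over all 12 libraries, a replicate block, 3 members were called lower, Slc25a1, Pgd and Scd2, against 1.67% of genes. The same 3 were called with 1 spread for all 12 libraries and no mouse term, where 211 of 13487 genes were called lower.

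**Figure D2:**
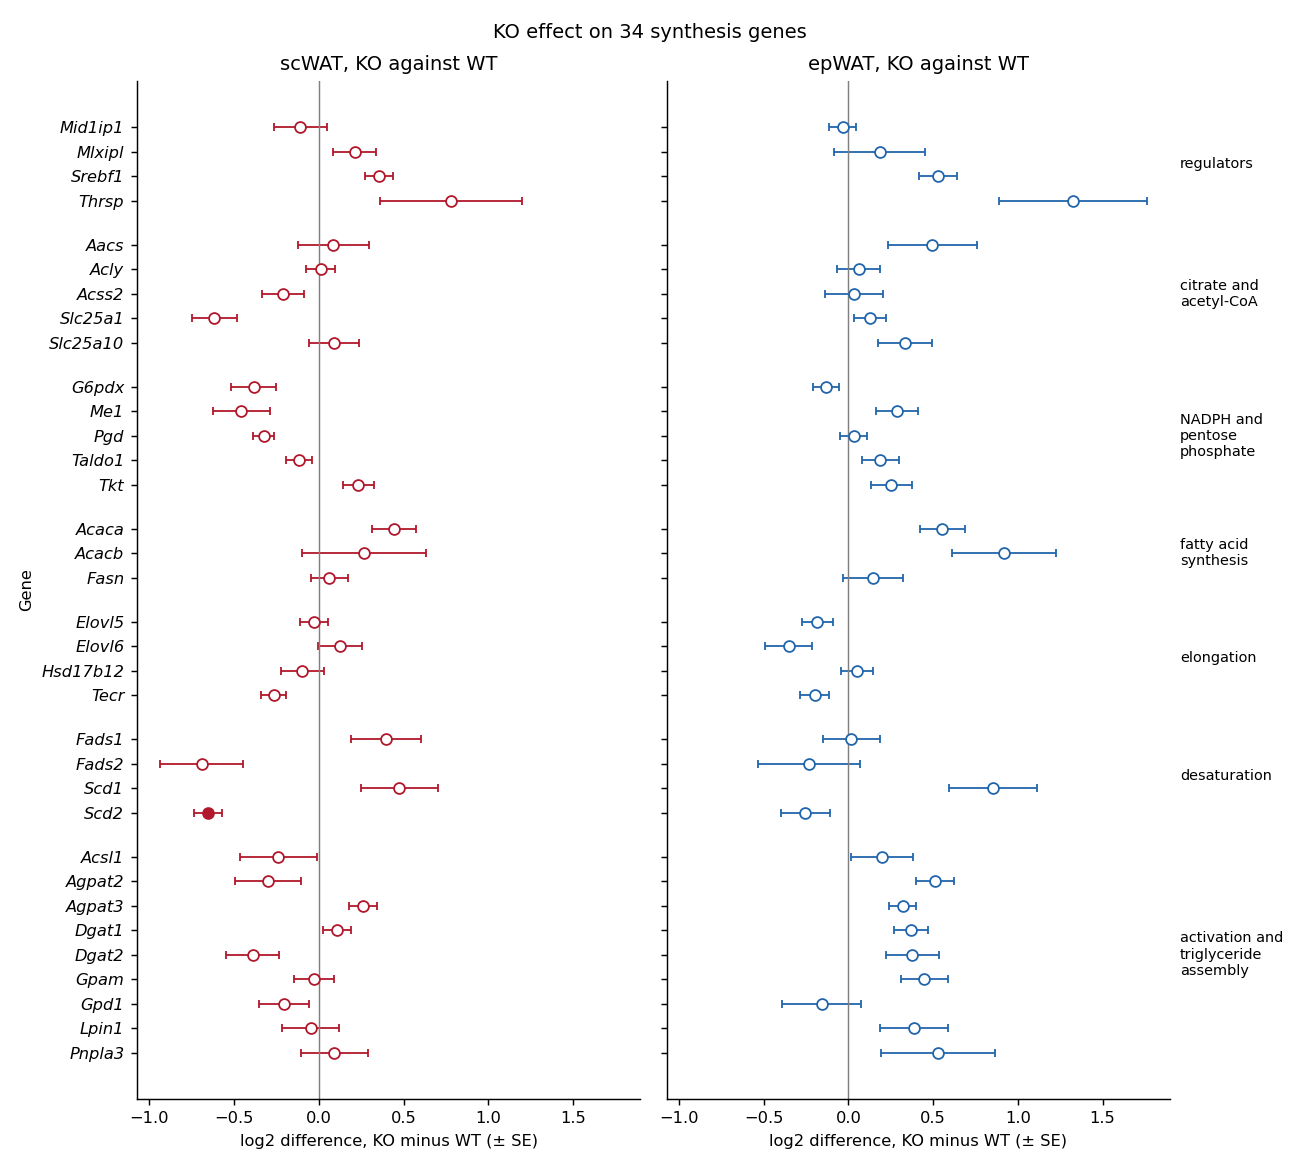
log2 difference, KO minus WT, of each of the 34 genes in scWAT (left, red) and epWAT (right, blue), with SE from limma as bars, grouped by role; a filled point has an adjusted p under 0.05. Scd2 in scWAT, at -0.65, is the only filled point, and 26 of 34 points in epWAT lie above 0 against 16 of 34 in scWAT, which scaling to adipocyte markers turned to 3 and 11 of 34.

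In epWAT most members had higher values in KO mice per read of whole tissue, but none passed the threshold. Relative to adipocyte markers most members were lower, as were most of all genes. The members higher per read included Srebf1, both acetyl-CoA carboxylases, Scd1 (not with quantile normalization) and most genes of triglyceride assembly. No gene of 12722 was called in this comparison, so that the share was 0.0% in each direction (0.0% higher, 0.0% lower), and the smallest adjusted p of a member was 0.0667. Of the 34 members 26 lay above 0 (3 of 34 with scaling to adipocyte markers), with a median log2 difference of 0.19 against -0.10 over all genes. At an unadjusted p under 0.05, 9 members were higher and 1 lower, against 7.16% and 22.7% of all genes. KO libraries lay above all WT libraries in 12 members and below in 5, against 9.6% and 29.2% of all genes.

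Markers of cell types differed between the same libraries. All 18 macrophage markers were lower in KO epWAT, 16 of them at an unadjusted p under 0.05, with a median log2 difference of -1.58. Their summed level was 779 to 2268 FPKM in KO and 3254 to 4933 FPKM in WT, and none was at 0 in any epWAT library. Of 12 adipocyte markers, 11 were higher, with a median of 0.62 and sums of 11380 to 15810 FPKM in KO against 7502 to 9795 FPKM in WT. The sums of the 6 muscle markers did not overlap either, at 36.2 to 59.1 FPKM in KO and 7.87 to 27.0 FPKM in WT, though 1 of the 6 passed the filter on low values. When libraries were scaled to the adipocyte markers, the members' median became -0.44, against -0.65 over all genes. Of the 34 members 14 were then called lower, and of all 12844 genes 8181 were. How far cell makeup accounts for the members' values was not tested. The directions below are per read of whole tissue. Relative to the adipocyte markers Thrsp, Acacb and Scd1 were the 3 members above 0 (log2 differences of 0.67, 0.31 and 0.19), and Srebf1, Acaca, Agpat2, Agpat3, Dgat1, Dgat2 and Gpam were turned round (-0.32 to -0.07).

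Srebf1 had 69.9, 80.3 and 91.0 FPKM in KO epWAT, against 56.4, 51.7 and 57.4 FPKM in WT epWAT. Every KO library lay above every WT library, with the smallest p of any member here (log2 difference 0.53 ± 0.11, limma, adjusted p = 0.0667). Thrsp had 274, 359 and 625 FPKM in KO and 88.8, 226 and 192 FPKM in WT, with the widest difference of any member in epWAT and a wide error (log2 difference 1.33 ± 0.44, adjusted p = 0.109). Mlxipl overlapped, at 13.2 to 20.9 FPKM in KO and 9.39 to 18.6 FPKM in WT.

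Both acetyl-CoA carboxylases had KO libraries above all WT libraries, as 9.6% of all genes did. Acaca had 18.7, 23.6 and 24.8 FPKM in KO epWAT and 13.2, 15.0 and 16.5 FPKM in WT epWAT (log2 difference 0.55 ± 0.13, limma, adjusted p = 0.0704). Acacb, the form bound to mitochondria, had 15.5, 22.3 and 16.5 FPKM in KO and 6.17, 15.0 and 7.71 FPKM in WT (log2 difference 0.92 ± 0.31, adjusted p = 0.113). Relative to the adipocyte markers Acacb kept this direction and Acaca did not. Fasn and Acly, the steps on either side, did overlap, Fasn with 264, 318 and 421 FPKM in KO and 275, 311 and 304 FPKM in WT, and Acly with 89.8 ± 15.3 FPKM in KO epWAT and 85.4 ± 4.57 FPKM in WT epWAT (SD, n = 3 each).

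Of the 4 elongation genes, 3 had every KO epWAT library below every WT epWAT library, as 29.2% of all genes did. With upper-quartile scaling the log2 differences of Tecr and Elovl5 were near 0, at -0.04 and -0.03, in place of -0.20 and -0.18. Elovl6, the elongase of palmitate, had 4.58, 5.04 and 5.49 FPKM in KO and 6.66, 8.14 and 5.51 FPKM in WT (log2 difference -0.35 ± 0.14, limma, adjusted p = 0.154), with KO C695 and WT C99 almost equal. Tecr had 92.5 ± 4.95 FPKM in KO and 106 ± 7.70 FPKM in WT. Elovl5, an elongase of polyunsaturated fatty acids, had 27.1 ± 2.73 FPKM in KO and 30.8 ± 1.05 FPKM in WT.

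Scd1 had 8521, 11584 and 9518 FPKM in KO epWAT, against 3964, 5804 and 6933 FPKM in WT epWAT. The KO libraries lay above all WT libraries, with a log2 difference of 0.85 ± 0.26 (limma, adjusted p = 0.0964). The difference was 1.01 with upper-quartile scaling and -0.03 with quantile normalization. Quantile normalization sets equal ranks to the same value in every library, so it can show little of a difference in the highest genes. In scWAT Scd1 had 9867, 8354 and 6379 FPKM in KO and 4837, 5699 and 7101 FPKM in WT, and KO C695 fell among the WT libraries.

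Of the 9 genes of activation and triglyceride assembly, 8 lay above 0 in KO epWAT. In 5 of them the KO libraries lay above all WT libraries, as in 9.6% of all genes. With scaling to adipocyte markers 0 of 9 lay above 0. Agpat2, the main lysophosphatidic acid acyltransferase of fat, had 273, 297 and 352 FPKM in KO and 220, 207 and 215 FPKM in WT (log2 difference 0.51 ± 0.11, limma, adjusted p = 0.0674). Agpat3 had 27.5, 31.6 and 30.8 FPKM in KO and 23.6, 24.7 and 23.0 FPKM in WT (log2 difference 0.32 ± 0.08, adjusted p = 0.0723). Gpam, the first acyltransferase of the pathway, had 54.1, 66.7 and 69.9 FPKM in KO and 45.8, 40.5 and 52.8 FPKM in WT (log2 difference 0.45 ± 0.14, adjusted p = 0.0982). In these 3 genes the KO and WT libraries were apart, most narrowly in Gpam. The diacylglycerol acyltransferases, which make the finished triglyceride, were apart too, Dgat1 at 74.9 ± 9.03 FPKM in KO and 57.6 ± 1.98 FPKM in WT, and Dgat2 at 934 to 1325 FPKM in KO and 784 to 920 FPKM in WT. Gpd1 was the exception, at 280 ± 97.9 FPKM in KO and 301 ± 10.5 FPKM in WT, overlapping.

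Without the KO epWAT library of C7, which held epididymal transcripts, 5 members were called higher, Srebf1, Acaca, Agpat2, Agpat3 and Gpam (limma, adjusted p of 0.0250 to 0.0439), against 2.68% of genes, and the median was 0.30. Of all 12485 genes 1447 were then called lower. C7 also had the highest macrophage sum and the lowest adipocyte sum of KO epWAT, at 2268 and 11380 FPKM. Which of these traits bore on the calls was not tested. With the mouse as a random effect, 5 members were called higher, Srebf1, Acaca, Agpat3, Dgat1 and Scd1, against 3.23% of genes.

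**Figure D3:**
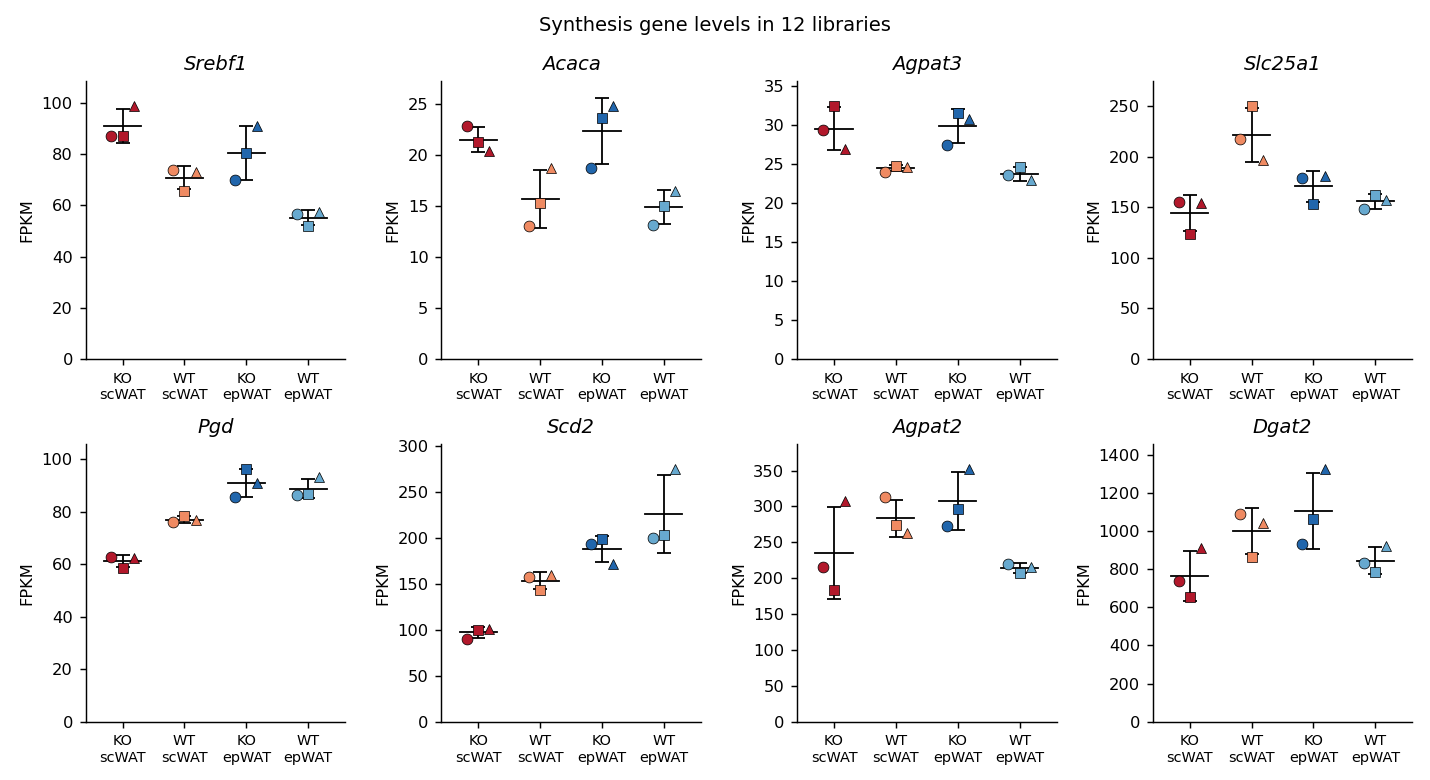
FPKM of 8 members in each library, groups from left KO scWAT, WT scWAT, KO epWAT and WT epWAT, 1 point per mouse (by shape), mean as a line and SD as a bar (n = 3). Srebf1, Acaca and Agpat3 lie higher in KO libraries of both pads and Agpat2 and Dgat2 in KO libraries of epWAT, all of which turned round in epWAT relative to adipocyte markers; Slc25a1, Pgd and Scd2 lie lower in KO scWAT.

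The ratio of the stearoyl-CoA desaturases was higher in every KO library than in every WT library of the same pad. Scd1 and Scd2 are neighbours on chromosome 19 (GRCm38, 44394455 to 44407879 on the minus strand for Scd1 and 44293674 to 44306864 on the plus strand for Scd2), and both desaturate stearoyl-CoA. The ratio of their FPKM within a library was looked at after their values were seen. Dividing a library by 1 factor leaves it as it is. Quantile normalization does not, since equal ranks are set to the same value in every library. The ratio was 109, 83.6 and 63.0 in KO scWAT, against 30.7, 39.9 and 44.5 in WT scWAT. It was 44.2, 58.3 and 55.6 in KO epWAT, against 19.9, 28.6 and 25.2 in WT epWAT. KO libraries lay above all WT libraries in each pad, by log2 differences of 1.13 in scWAT and 1.11 in epWAT, which were 0.67 and 0.10 with quantile normalization. An exact two-sided permutation test gave p = 0.1 in each pad, the smallest p that 3 libraries against 3 allow, so this test could not reach 0.05. Leaving out single libraries gave log2 differences of 0.94 to 1.33 in scWAT and 0.96 to 1.23 in epWAT. Both genes belong to a family of close copies, and how the authors treated reads shared between them is not given in the sources used here.

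**Figure D4:**
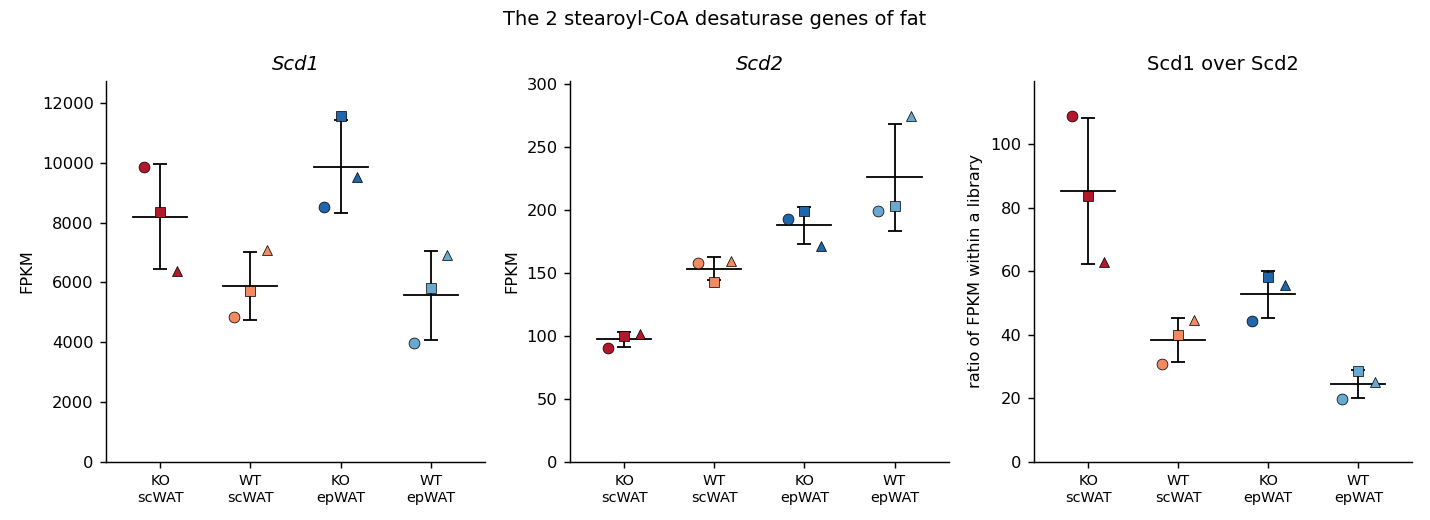
FPKM of Scd1 and of Scd2, and the ratio of Scd1 over Scd2 in each library, in KO scWAT, WT scWAT, KO epWAT and WT epWAT; points are mice (by shape), lines the mean and bars the SD (n = 3). The ratio is 63.0 to 109 in KO scWAT against 30.7 to 44.5 in WT scWAT, and 44.2 to 58.3 in KO epWAT against 19.9 to 28.6 in WT epWAT.

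The interaction over all 12 libraries, that is KO minus WT in scWAT less the same difference in epWAT, was below 0 for 30 of 34 members (above 0 for 29 of 34 with scaling to adipocyte markers), with a median of -0.26 against 0.10 over all 13487 genes. No member was called, where 0.586% of genes were called higher and 0.445% lower. This fit took both pads of a mouse as independent, and with the mouse as a block no gene was called. By limma at an unadjusted p under 0.05, 8 members were lower and 1 higher, against 7.44% and 17.0% of all genes. The smallest p was that of Slc25a1 (-0.75 ± 0.17, limma, adjusted p = 0.0619), for which KO minus WT was -0.62 in scWAT and 0.13 in epWAT. Pgd followed at -0.36 ± 0.09 (adjusted p = 0.0783), then Agpat2 at -0.81 ± 0.24 (adjusted p = 0.0931), Dgat2 at -0.77 ± 0.23 (adjusted p = 0.0951) and Me1 at -0.74 ± 0.22 (adjusted p = 0.0958). Gpam, Taldo1 and Scd2 had negative interactions of -0.47, -0.31 and -0.40, and Elovl6 a positive one of 0.48. Relative to the adipocyte markers the interactions of Pgd, Gpam, Taldo1 and Scd2 were above 0, and those of Slc25a1, Agpat2, Dgat2 and Me1 stayed below 0. For Srebf1, Acaca and Agpat3, which lay higher in KO mice in both pads, the interaction was -0.17 ± 0.14, -0.11 ± 0.20 and -0.06 ± 0.11. In epWAT that direction was lost with scaling to the adipocyte markers.

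Marker genes had interactions too. All 18 macrophage markers had interactions above 0 and 11 of 12 adipocyte markers below 0, with medians of 1.49 and -0.53, and on scaling to the adipocyte markers the members' median became 0.29, against 0.56 over all genes. Their part in the members' interactions was not tested. With KO epWAT C7, which held epididymal transcripts, and KO scWAT C695, which held B cell transcripts, left out together, 4 members were called lower (Slc25a1, Pgd, Agpat2 and Dgat2, limma, adjusted p of 0.0121 to 0.0388), against 2.58% of genes. These libraries also had the highest macrophage sum of KO epWAT (2268 FPKM) and the lowest of KO scWAT (699 FPKM). Without KO epWAT C7 alone 3 members were called lower, where 223 of 13385 genes were called lower and 705 higher. Without KO scWAT C695 alone Agpat2 was called lower, where 70 of 13364 genes were called lower and 112 higher. Without KO scWAT C34, the library with most muscle transcripts, 0 members were called, where 14 of 13402 genes were called lower and 13 higher.

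Between the pads of WT mice, scWAT had more Acsl1, Gpd1, Slc25a1, Agpat2 and Srebf1 and less Acly, Scd2, Pgd and Elovl5 than epWAT, per read of whole tissue, with Gpd1, Slc25a1, Agpat2 and Srebf1 turned round on scaling to adipocyte markers. These 5 members rose and 4 fell at an adjusted p under 0.05 in limma, against 7.49% and 14.9% of 12760 genes, and the members' median was 0.08 against -0.04 over all genes. Acsl1, the acyl-CoA synthetase of fat cells, had 299, 241 and 262 FPKM in WT scWAT, against 166, 153 and 146 FPKM in WT epWAT (log2 difference 0.78 ± 0.10, adjusted p = 0.0051). Acly had 58.2, 59.9 and 55.7 FPKM in WT scWAT, against 84.0, 81.7 and 90.5 FPKM in WT epWAT (log2 difference -0.55 ± 0.06, adjusted p = 0.00459). Neither gene overlapped between the pads, and both calls held whichever library was left out. With scaling to the adipocyte markers Acsl1 had a log2 difference of 0.25 and was no longer called (adjusted p = 0.247).

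The citrate exporter Slc25a1 lay the other way from Acly per read of whole tissue, though not with scaling to adipocyte markers, at 221 ± 26.9 FPKM in WT scWAT and 156 ± 7.22 FPKM in WT epWAT (log2 difference 0.50 ± 0.10, limma, adjusted p = 0.0166). Gpd1 was at 392 ± 23.3 FPKM in scWAT and 301 ± 10.5 FPKM in epWAT, Agpat2 at 284 ± 26.0 FPKM and 214 ± 6.61 FPKM, and Srebf1 at 70.7 ± 4.45 FPKM and 55.2 ± 3.05 FPKM (log2 differences of 0.38, 0.40 and 0.35). With scaling to the adipocyte markers these 4 differences were -0.17 to -0.03. Of the 34 members 21 were then called lower, and of all 12796 genes 7500 were. The adipocyte marker median was 0.58 and all 18 macrophage markers fell, with a median of -1.54; their part was not tested. Scd2 was at 153 ± 9.27 FPKM in WT scWAT and 226 ± 42.6 FPKM in WT epWAT, Pgd at 77.0 ± 1.20 FPKM and 88.9 ± 3.80 FPKM, and Elovl5 at 26.5 ± 1.11 FPKM and 30.8 ± 1.05 FPKM (log2 differences of -0.54, -0.20 and -0.21). The calls of Pgd and Elovl5 were lost whichever library was left out. Without WT scWAT C75 the count was 5 of 34, where 590 of 12533 genes were called higher and 1488 lower. With the mouse as a block, pairing the pads, 10 members rose and 8 fell, against 10.8% and 19.0% of genes, and all 9 of the unpaired calls were among them.

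Between the pads of KO mice only Scd2 was called, at 97.2 ± 5.94 FPKM in KO scWAT and 188 ± 14.4 FPKM in KO epWAT (SD, n = 3 each; log2 difference -0.94 ± 0.10, limma, adjusted p = 0.0155). Of 12623 genes, 0.428% were called lower and 0.285% higher. The call was kept without KO epWAT C695 and lost without any other single library (adjusted p of 0.0422 to 0.123), and with the mouse as a block no member was called. At an unadjusted p under 0.05, 11 members were lower and 1 higher, against 5.78% and 8.8% of all genes, and the median was -0.22 against 0.06. The lower members were led by Pgd at 61.3 ± 2.34 FPKM in KO scWAT and 90.9 ± 5.38 FPKM in KO epWAT (log2 difference -0.56 ± 0.08, limma, adjusted p = 0.0538), Gpam at 36.4 ± 5.37 FPKM and 63.6 ± 8.35 FPKM (-0.79 ± 0.15, adjusted p = 0.0925) and G6pdx at 65.5 ± 9.87 FPKM and 95.3 ± 1.90 FPKM (-0.55 ± 0.13, adjusted p = 0.138). Acly, Me1, Acss2 and Hsd17b12 followed, with log2 differences of -0.60, -0.58, -0.51 and -0.34. Mlxipl was the member on the other side, at 21.4 ± 0.692 FPKM in KO scWAT and 16.0 ± 4.24 FPKM in KO epWAT, with overlapping groups (limma, adjusted p = 0.334). The comparisons between pads share their libraries with the KO effects above and are not independent of them.

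**Figure D5:**
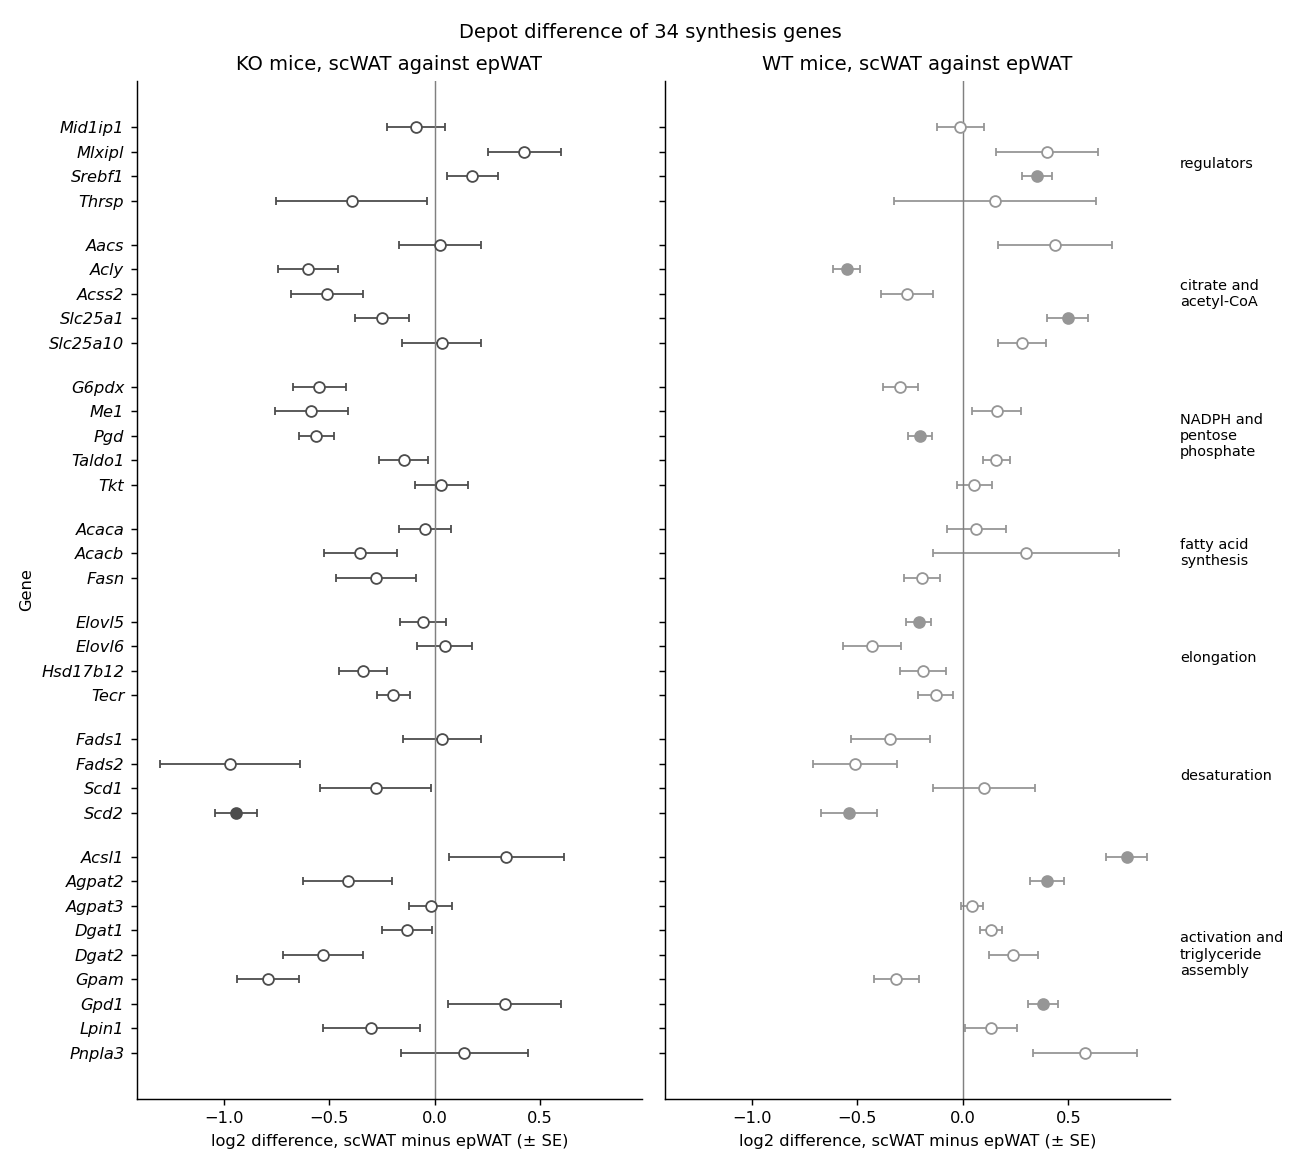
log2 difference, scWAT minus epWAT, of each of the 34 genes in KO mice (left) and WT mice (right), with SE from limma as bars, grouped by role; a filled point has an adjusted p under 0.05. In KO mice Scd2 alone is filled, at -0.94, and in WT mice 9 genes are filled, from Scd2 at -0.54 and Acly at -0.55 to Acsl1 at 0.78.

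The wider pathway was represented by 84 further genes of regulation, substrate supply, fatty acid and glycerolipid metabolism, of which 70 to 73 passed the filter in a comparison. In KO against WT scWAT 1 of 70 was called lower and none higher, with 6 higher and 9 lower at an unadjusted p under 0.05 by limma, against 6.83% and 10.2% of all genes. The gene called was Lpgat1, an acyltransferase of lysophospholipids, with 127, 107 and 139 FPKM in KO scWAT against 232, 215 and 232 FPKM in WT scWAT (log2 difference -0.87 ± 0.11, limma, adjusted p = 0.0499), and the call was kept in 1 of the 6 fits that left out a library, that without KO scWAT C695. In KO against WT epWAT none of 71 was called by limma, with 18 higher and 13 lower at an unadjusted p under 0.05, against 7.16% and 22.7% of all genes. The interaction was called lower for 1 of 73, again Lpgat1. Between the pads of KO mice none of 71 was called, with 5 higher and 6 lower at an unadjusted p under 0.05 by limma, against 8.8% and 5.78% of all genes. Between the pads of WT mice 14 of 70 rose and 12 fell in scWAT, against 7.49% and 14.9% of all genes, so the share that fell was near that of all genes. The smallest p were those of Idh2, a mitochondrial isocitrate dehydrogenase that makes NADPH, at 70.8, 72.6 and 81.5 FPKM in WT scWAT and 38.3, 44.9 and 42.3 FPKM in WT epWAT, and of Mogat2, a monoacylglycerol acyltransferase, at 7.80 ± 0.58 FPKM and 12.7 ± 0.529 FPKM. Hacd4, a dehydratase of elongation, followed at 2.68 ± 0.195 FPKM and 6.18 ± 0.972 FPKM, and Pck1, which feeds glycerol synthesis from pyruvate in fat, at 309 ± 62.9 FPKM and 117 ± 18.4 FPKM (log2 differences of 0.83, -0.64, -0.96 and 1.39, adjusted p of 0.00425 to 0.00501).

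Of the 34 members 15 share exon bases with another gene, mostly on the other strand, and without a known strand setting reads of such partners cannot be told apart. The shared part was 25.5% of Mid1ip1, 13.6% of G6pdx (with Ikbkg), 13.0% of Gpd1 and 9.91% of Acsl1, and at most 6.78% with any single partner in the other members.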

How the data were processed

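RNA-seq of 12 libraries was deposited as FPKM per Ensembl gene, with 32622 genes in each table. That unit is inferred from the values. The submitters' processing notes name the mm9 build. The aligner, counting program and strand setting are not given in the sources used here. Multiplying the deposited FPKM by exon length (GENCODE M21, GRCm38) and 1 depth per library gave whole reads, within 0.01, for 92.4% of genes in all libraries. Symbols came from GENCODE M21, which matched 32553 identifiers.

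A gene entered a fit when 3 or more of its libraries had an FPKM of 1 or more. The test was limma-trend on log2(FPKM + 1), a scale that understates changes of low genes, with Benjamini-Hochberg adjustment over all genes tested. A count test planned for raw counts was not used. KO was compared with WT in each pad on 6 libraries, the pads within each genotype, and the interaction on 12. The members and gene lists were chosen with earlier results of these data known. Differences are given for members called at an adjusted p under 0.05 or, where fewer than 8 were called, for the 8 with the smallest p; further members at an unadjusted p under 0.05, and the members' levels, were added after values were seen. Of the other pathway genes up to 4 called are named per comparison.

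A code given in both pads was taken to be 1 animal. After group means were removed, the pads of a mouse correlated at -0.03 for C7 and 0.11 to 0.36 for the other 5 mice, against at most 0.06 between different mice. The pairing rests on the shared animal. Alternatives were no filter, a minimum FPKM of 5, a pseudocount of 0.1 or 5, scaling by the upper quartile, by quantiles or to 12 adipocyte markers, limma-voom on recovered reads, 1 spread for all 12 libraries, the mouse as a block, leaving out each library, and, for the interaction, leaving out together the KO libraries with epididymal and B cell transcripts. Ratios with libraries left out or quantile normalization were added after seeing the data. The procedure was tested on simulated data. Fits used R 4.3.3 with limma 3.58.1 and statmod 1.5.0. Tables and figures used Python 3.11.15 with pandas 2.3.3, numpy 2.4.6 and matplotlib 3.10.9.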

Additional observations from a re-analysis of the deposited data

Results flagged for a closer look

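Lpgat1, an acyltransferase of lysophospholipids and no member of the 34, had a KO effect that differed between the pads by a direct test of the difference. It had 127, 107 and 139 FPKM in KO scWAT and 232, 215 and 232 FPKM in WT scWAT, and 213, 219 and 185 FPKM in KO epWAT and 194, 210 and 236 FPKM in WT epWAT. The KO and WT groups were apart in scWAT and overlapped in epWAT. The interaction was -0.82 ± 0.16 on the log2 scale (SE; limma, Benjamini-Hochberg adjusted p = 0.0444). Leaving out each of 12 libraries gave adjusted p of 0.0325 to 0.115, and 2 of these 12 fits kept the call, those without KO epWAT C7 and without KO scWAT C695. With the mouse as a block the adjusted p was 0.0723, and with scaling to the adipocyte markers it was 0.372.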

How the results depend on the processing

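Members called in KO against WT scWAT numbered 1 and was 0 with no filter, pseudocount 5, quantile normalization, scaling to adipocyte markers and limma-voom, and 3 with the shared spread and with the mouse as a random effect (replicate block); leaving out libraries gave 0 to 1. With the shared spread 211 of 13487 genes were called lower and 40 higher, and with the replicate block 225 and 40. The members' median of -0.03 was -0.12 with adipocyte scaling. In epWAT the count of 0 became 1 with quantile normalization, 14 with adipocyte scaling, 5 with the shared spread and 5 with the replicate block, and 0 to 5 with libraries left out. Quantile normalization called 44 of 12722 genes higher and 46 lower. The shared spread called 433 of 13487 genes higher and 1332 lower, and the replicate block 436 and 1323. The members' median of 0.19 became 0.35 with upper-quartile, 0.28 with quantile and -0.44 with adipocyte scaling, and 0.15 to 0.30 with libraries left out. Adipocyte scaling gave a median of all genes in epWAT of -0.65 in place of -0.10, and 8181 of 12844 genes were then called lower.

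The interaction count of 0 became 1 with a minimum FPKM of 5, upper-quartile, quantile and adipocyte scaling (1 each), 4 without both KO epWAT C7 and KO scWAT C695, and 0 to 3 with single libraries left out, and stayed 0 with the mouse as a replicate block. Genes called higher and lower were 37 and 156 of 13469 with upper-quartile, 77 and 125 of 13487 with quantile and 2529 and 27 of 13677 with adipocyte scaling. With a minimum FPKM of 5 they were 100 and 77 of 8012. With the replicate block no gene of 13487 was called, where the main fit called 79 higher and 60 lower. The members' interaction median of -0.26 became -0.42 with upper-quartile scaling, 0.29 with adipocyte scaling and -0.34 without the 2 libraries. In WT scWAT against epWAT the count of 9 became 4 with no filter, 21 with adipocyte scaling, 18 with the replicate block and 5 to 8 with libraries left out. Adipocyte scaling called 7500 of all 12796 genes lower in that comparison, and the fit with no filter called 626 of 27774 higher and 1366 lower. The members' median of 0.08 became 0.16 with upper-quartile scaling, -0.43 with adipocyte scaling and -0.031 to 0.138 with libraries left out. In KO scWAT against epWAT the count of 1 became 2 with upper-quartile scaling, 0 with adipocyte scaling and 0 with the replicate block, and 0 to 1 with libraries left out. Upper-quartile scaling called 31 of 12621 genes higher and 57 lower there. The members' median of -0.22 became -0.31 with upper-quartile scaling and -0.24 to -0.12 with libraries left out.

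Adipocyte scaling turned round, in epWAT, Srebf1 (-0.121), Agpat2 (-0.144), Acaca (-0.071), Agpat3 (-0.315), Dgat1 (-0.281) and Gpam (-0.200), in the interaction Pgd (0.201), Gpam (0.080), Taldo1 (0.255) and Scd2 (0.161), and between WT pads Gpd1 (-0.149), Slc25a1 (-0.031), Agpat2 (-0.129) and Srebf1 (-0.171). Quantile normalization turned round Scd1 in epWAT (-0.027), and without KO epWAT C34 the Fads1 to Fads2 log2 difference in epWAT was -0.135, within a range of -0.135 to 0.526 over libraries left out. Over the genes chosen by the naming rule, 840 values under alternatives kept direction and side of the threshold, 74 lost a call, 34 gained one and 15 were turned round. Over all 34 members, adipocyte scaling turned round 5 in scWAT, 23 in epWAT, 25 in the interaction, 18 between WT pads and 1 between KO pads. Quantile normalization took the Scd1 to Scd2 log2 difference to 0.673 in scWAT and 0.102 in epWAT. Adipocyte scaling divides by markers that themselves differed, and quantile normalization sets equal ranks to the same value in every library. The cause of these shifts was not otherwise tested. The fewest reads behind a member's value were 108, for Fads2.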

Other observations

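The desaturases Fads1 and Fads2, which act in polyunsaturated fatty acid synthesis and are neighbours on chromosome 19, were set against each other within libraries after their values were seen. The ratio of Fads1 to Fads2 FPKM was 4.99, 3.56 and 2.35 in KO scWAT, against 1.52, 0.856 and 2.61 in WT scWAT. It was 1.12, 2.81 and 1.28 in KO epWAT, against 1.50, 1.06 and 1.43 in WT epWAT. The groups overlapped in each pad, with log2 differences of 1.21 in scWAT and 0.27 in epWAT (exact two-sided permutation test, p = 0.2 and p = 0.8). The level of Fads2 depends on the length the authors used, which is a constant factor in every library and leaves the differences between groups as they are.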
